A study of Mus musculus with 18 samples.

Results

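TNF superfamily ligands and receptors were followed across 6 groups of intestinal dendritic cells (DCs) through 10 genes, the ligands Tnf, Tnfsf4, Tnfsf9, Cd70 and Tnfsf13b and the receptors Cd40, Tnfrsf4, Tnfrsf9, Tnfrsf1b and Fas. The genes were chosen by name, as superfamily members of DCs, with earlier results of these data known, so counts among them are descriptions. Each was found once by its Ensembl identifier among the 54232 genes of the count table. All 10 passed the filter on low counts, which left 17074 genes to be tested. The 18 RNA-seq libraries came from C57BL/6J mice whose genotype is labelled CD11a KO, and this genotype is shared by every group. Itgal encodes CD11a, which pairs with CD18 in the adhesion receptor LFA-1 of leukocytes. The 3 DC subsets, CD11b+ (CD103-), CD103+ (CD11b-) and Double+ (CD11b+ CD103+), were each taken from 2 tissues, the lamina propria of the small intestine and the intestinal lymph node, with 3 libraries per group. The labels describe a sort of live CD45+ CD64- CD11c+ cells with high MHC class II for lamina propria DCs. Neither the gate used for lymph node cells nor the age of the mice is given in the sources used here. GEO labels do not say whether replicates came from separate animals, so p-values measure the spread between these libraries.

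Ligands of the TNF superfamily are trimeric proteins, most of them anchored in the membrane, and their receptors signal through TRAF adaptors or through death domains. Between DCs and T cells the family works in both directions. CD40 on the DC receives CD40 ligand from helper T cells, while OX40 ligand (Tnfsf4), 4-1BB ligand (Tnfsf9) and CD70 on the DC engage OX40 (Tnfrsf4), 4-1BB (Tnfrsf9) and CD27 on T cells. BAFF (Tnfsf13b) is a survival factor for B cells and acts through BAFF-R, TACI and BCMA. In the intestine, migratory DCs carry antigen from the lamina propria to the draining lymph nodes, where these signals are exchanged.

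Promoter sequence was available from RefSeq (GRCm38.p6) for 6 of the 10 genes: Tnf, Tnfsf13b, Tnfrsf4, Tnfrsf9, Tnfrsf1b and Fas. The 250 bases before each start were searched on both strands for the kB consensus bound by NF-kB, for the AP-1 site TGANTCA and for the interferon response element (GAAA repeated after 2 free bases), which were present in 7.25%, 6.75% and 2.98% of the 32851 promoter windows in the table. Shown are Fas and Tnfrsf1b, receptors that were higher in all lymph node groups, and the first start of Tnfsf13b, the ligand that was lower in all of them. Capitals mark the AP-1 letters in Fas, 211 bases before the start, and the interferon response letters on the opposite strand in Tnfrsf1b, 10 bases before it.
Fas, chr19:34290409-34290658, plus strand: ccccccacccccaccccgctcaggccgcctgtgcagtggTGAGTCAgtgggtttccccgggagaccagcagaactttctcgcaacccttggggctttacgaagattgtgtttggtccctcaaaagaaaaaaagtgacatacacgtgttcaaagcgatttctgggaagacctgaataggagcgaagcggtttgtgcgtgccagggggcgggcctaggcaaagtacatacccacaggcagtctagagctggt
Tnfrsf1b, chr4:145246871-145247120, minus strand: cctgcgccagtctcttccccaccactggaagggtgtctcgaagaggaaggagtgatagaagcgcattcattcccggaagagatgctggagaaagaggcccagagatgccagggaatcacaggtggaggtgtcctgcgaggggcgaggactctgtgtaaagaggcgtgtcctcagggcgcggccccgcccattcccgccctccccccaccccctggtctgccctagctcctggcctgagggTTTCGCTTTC
Tnfsf13b, chr8:10006217-10006466, plus strand: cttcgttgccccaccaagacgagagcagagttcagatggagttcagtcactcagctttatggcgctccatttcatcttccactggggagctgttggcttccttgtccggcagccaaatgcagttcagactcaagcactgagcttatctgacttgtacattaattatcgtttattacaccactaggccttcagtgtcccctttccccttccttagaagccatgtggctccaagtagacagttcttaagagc
The second start of Tnfrsf9 had 2 overlapping kB matches, 43 and 42 bases before it, and an AP-1 match 15 bases before it, and 30 bases around the kB letters in capitals are shown because no other window of these 6 genes held a kB match.
Tnfrsf9, chr4:150927947-150927976, plus strand: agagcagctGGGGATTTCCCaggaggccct
The second start of Tnfsf13b had an AP-1 match 127 bases and an interferon response match 16 bases before it. None of the 3 motifs was found in the letters before the start of Tnf or Tnfrsf4 or before the first start of Tnfrsf9 or Tnfsf13b. The windows of the second starts of Tnfrsf9 and Tnfsf13b overlap annotated exons of the same gene, and the window of Tnfrsf4 overlaps annotated exons of another gene, Sdf4. Which start was used was not measured. A match is a description of sequence, and no binding was measured.

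Library totals lay between 23574292 and 46901985 counts. Itgal was counted at 6.45 to 26.7 CPM (read counts scaled to library size, with TMM factors) in all 18 libraries. The deleted part of the gene is not given and no wild-type library was analysed here, so this does not check the genotype. Itgam (CD11b) stood at 55.3 to 76.4 CPM in lamina propria CD11b+ and Double+ DCs and at most 1.27 CPM in CD103+ DCs. Itgae (CD103) was 1238 to 1440 CPM in lamina propria CD103+ DCs and 92.1 to 292.5 CPM in lamina propria CD11b+ DCs. It was no more than 49.1 CPM in the lymph nodes, so that CD103+ and Double+ cells there held less Itgae transcript than the CD11b+ cells of the lamina propria. Summed DC markers (Flt3, Zbtb46, Itgax, H2-Ab1, H2-Aa, Cd74) were 76000 to 92050 CPM in the lamina propria. In the lymph nodes they were 22260 to 56260 CPM. Sums of 6 genes each marked the DC lineages cDC1 (Xcr1, Clec9a and others) and cDC2 (Sirpa, Itgam and others). CD11b+ DCs held cDC2 markers at 2630 to 3902 CPM in the lamina propria and 774.6 to 1207 CPM in the lymph node. Double+ DCs held cDC2 markers at 3105 to 3754 CPM in the lamina propria and 197.9 to 243.5 CPM in the lymph node. Their cDC1 markers were at 256.6 to 291.8 and 938.9 to 1119 CPM. CD103+ DCs held cDC1 markers at 7730 to 8235 and 1989 to 2057 CPM. Subset names are those of the sort. Ddx3y, on the Y chromosome, stood at 50 CPM or more in every lamina propria library and Xist at 15.4 CPM or more in every lymph node library, so that sex and tissue largely cannot be told apart. Lymph node CD11b+ replicate 3 and lymph node Double+ replicate 3 held both transcripts, and results are also given without these 2 libraries. Summed T cell markers (12 genes, all higher in each subset) were 5.07 to 33.5 CPM in the lamina propria and 346.5 to 788 CPM in the lymph nodes, with no defining marker at 0 in either tissue. Maturation markers that exclude the 10 genes (Ccr7, Fscn1 and others, 9 genes) summed to 955 to 2491 CPM in the lamina propria. In the lymph nodes they summed to 4734 to 7519 CPM in CD11b+, 31970 to 33210 CPM in CD103+ and 26280 to 28610 CPM in Double+ DCs. The part of maturation in the levels of the 10 genes was not tested. In bulk libraries such as these, fewer cells of a type and less RNA per cell cannot be told apart.

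The first question was how levels differ between lymph node and lamina propria DCs sorted under the same subset name. Genes passed the test with an adjusted p below 0.01 together with a change of more than 2-fold (edgeR quasi-likelihood test, Benjamini-Hochberg over all 17074 genes). In each of the 3 subsets 9 of the 10 genes changed, 8 higher and 1 lower in the lymph node. Of all tested genes 15.2% changed in CD11b+ DCs (10.3% higher, 4.93% lower), 35% in CD103+ DCs (19.8% higher, 15.1% lower) and 32.1% in Double+ DCs (18.6% higher, 13.6% lower). In the mean of the 3 tissue differences all 10 passed, 9 higher and 1 lower, where 32.7% of tested genes did. Higher in all 3 subsets were the 5 receptors, Tnfsf4 and Cd70. Tnfsf13b was lower in all 3. Tnf passed in CD11b+ DCs and not in the other 2 subsets, and Tnfsf9 rose in CD103+ and Double+ DCs. For the 5 receptors, Tnfsf4 and Cd70 all 9 lymph node libraries lay above all 9 lamina propria libraries, a pattern seen in 10.2% of tested genes. For Tnfsf13b all 9 lay below, as in 7.61% of tested genes. The libraries of the 2 tissues overlapped for Tnf and Tnfsf9. Without the 2 libraries that held both Xist and Ddx3y, the number changed was 9 in CD11b+, 9 in CD103+ and 8 in Double+ DCs.

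Among the receptors, Cd40 (ENSMUSG00000017652, chr2:165055627-165072948), through which DCs are licensed by T cells, was well expressed in both tissues. In the lamina propria it was counted at 79.9, 71.5 and 85.9 CPM in CD11b+ DCs, at 58.6, 58.9 and 77.3 CPM in CD103+ DCs and at 85.3, 102.5 and 103.1 CPM in Double+ DCs. In the lymph nodes it was counted at 201.4, 233.2 and 237.9 CPM in CD11b+ DCs, at 830.7, 960.4 and 976.6 CPM in CD103+ DCs and at 694.4, 846.5 and 715 CPM in Double+ DCs. Lymph node CD103+ and Double+ DCs overlapped at the top of the order, CD11b+ DCs stood below both, and the lamina propria groups came last with overlapping neighbours. The log2 rise was 1.5 ± 0.13 (SE) in CD11b+ DCs, 3.83 ± 0.14 in CD103+ DCs and 2.95 ± 0.13 in Double+ DCs (edgeR adjusted p 1.22e-07, 7.69e-13 and 1.38e-11).

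Tnfrsf1b (ENSMUSG00000028599, chr4:145213463-145246870, minus strand) encodes TNFR2, the TNF receptor without a death domain. Lamina propria libraries held 149.4, 155.2 and 160.7 CPM in CD11b+ DCs, 61.2, 57.1 and 65.4 CPM in CD103+ DCs and 145, 153.4 and 172.2 CPM in Double+ DCs. Lymph node libraries held 421, 501.4 and 595.9 CPM in CD11b+ DCs, 1134, 1167 and 993.3 CPM in CD103+ DCs and 1444, 1352 and 1562 CPM in Double+ DCs. In the lymph nodes the 3 subsets were thus separate, whereas in the lamina propria CD11b+ and Double+ DCs overlapped and CD103+ DCs were lower than both. The log2 rise was 1.71 ± 0.11 in CD11b+ DCs, 4.17 ± 0.13 in CD103+ DCs and 3.21 ± 0.12 in Double+ DCs (edgeR adjusted p 1.03e-08, 1.53e-13 and 2.48e-12).

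Fas (ENSMUSG00000024778, chr19:34290666-34327772), the death receptor engaged by FasL, was low in the lamina propria. The 9 lamina propria libraries ran from 2.09 through a median of 3.06 to 5.80 CPM. Lymph node DCs held it at 47.6, 55.4 and 57.5 CPM in CD11b+ DCs, at 318.2, 390.8 and 406.8 CPM in CD103+ DCs and at 150.4, 175.6 and 158.4 CPM in Double+ DCs. The lymph node subsets did not overlap, with CD103+ DCs highest, while neighbouring lamina propria groups overlapped. The log2 rise was 4.32 ± 0.21 in CD11b+ DCs, 6.51 ± 0.22 in CD103+ DCs and 5.98 ± 0.22 in Double+ DCs (edgeR adjusted p 3.99e-10, 4.53e-13 and 2.39e-12).

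Tnfrsf4 (ENSMUSG00000029075, chr4:156013843-156016612) encodes OX40, best known as a costimulatory receptor of activated T cells. The 9 lamina propria libraries ran from 0.915 through a median of 3.54 to 7.29 CPM. Lymph node levels were 49.8, 91.9 and 79.1 CPM in CD11b+ DCs, 656.1, 698 and 807.3 CPM in CD103+ DCs and 375.3, 437.1 and 384.3 CPM in Double+ DCs. CD103+ DCs were highest and the 3 lymph node subsets did not overlap. The log2 rise was 5.41 ± 0.31 in CD11b+ DCs, 7.12 ± 0.31 in CD103+ DCs and 6.75 ± 0.31 in Double+ DCs (edgeR adjusted p 1.98e-09, 6.78e-12 and 2.12e-11).

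Tnfrsf9 (ENSMUSG00000028965, chr4:150914562-150946102) encodes 4-1BB, another costimulatory receptor of activated T cells. Lamina propria libraries ran from 0.915 through a median of 3.43 to 6.69 CPM. Lymph node levels were 84.3, 133.4 and 103.1 CPM in CD11b+ DCs, 507.9, 530.3 and 572 CPM in CD103+ DCs and 625.4, 623.1 and 541.4 CPM in Double+ DCs. Here CD103+ and Double+ DCs overlapped, and CD11b+ DCs were lower than both. The log2 rise was 5.78 ± 0.37 in CD11b+ DCs, 6.94 ± 0.37 in CD103+ DCs and 7.11 ± 0.37 in Double+ DCs (edgeR adjusted p 6.55e-09, 7.73e-11 and 9.01e-11).

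OX40 and 4-1BB are T cell receptors by reputation and T cell markers rose with them, so both were set against the summed T cell markers of the same library. In lymph node CD11b+ DCs Tnfrsf4 was 0.107 to 0.222 times and Tnfrsf9 0.180 to 0.289 times that sum. In lymph node CD103+ DCs the ratios were 0.848 to 1.77 for Tnfrsf4 and 0.656 to 1.25 for Tnfrsf9, and in Double+ DCs they were 0.649 to 1.11 and 1.08 to 1.56. The T cell sum itself was 356.3 to 669.5 CPM in CD11b+, 456.6 to 788 CPM in CD103+ and 346.5 to 578 CPM in Double+ lymph node DCs. Regulatory T cell markers (Foxp3, Ikzf4, Ctla4) summed to 21.4 to 76.1 CPM in the lymph nodes and 1.90 to 9.79 CPM in the lamina propria. The part of T cells, regulatory or other, in the level of either receptor was not tested.

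**Figure D1:**
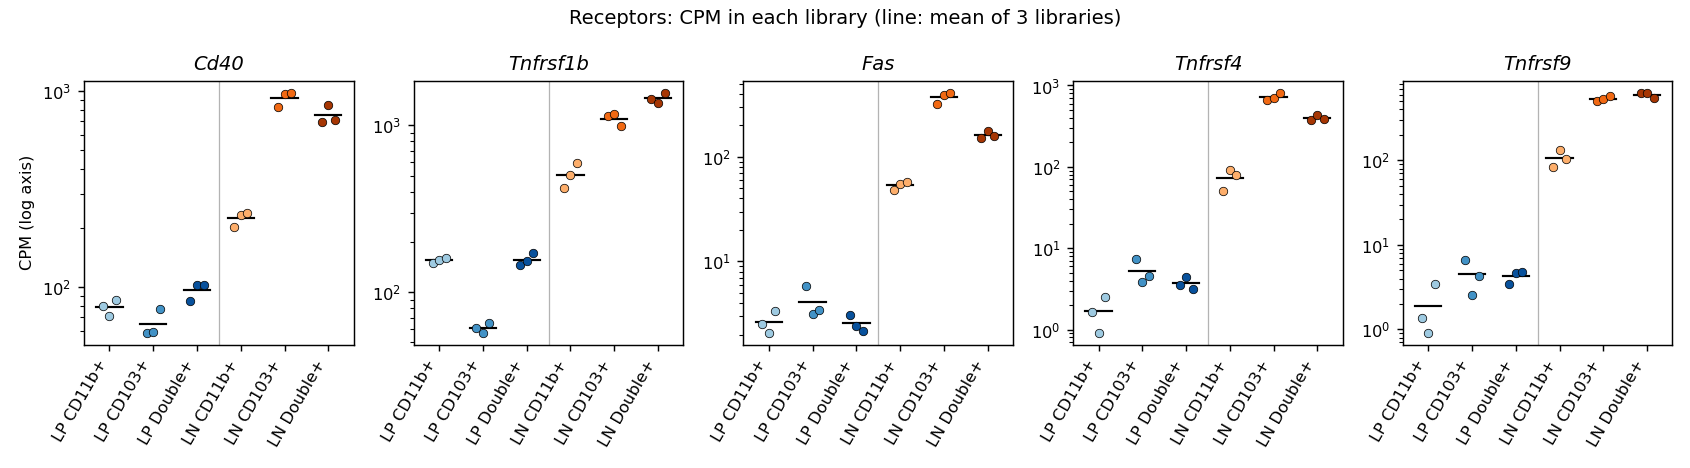
Receptor levels in CPM on a log axis in each of the 18 libraries (points) with the mean of 3 libraries (line), for lamina propria (LP) and lymph node (LN) groups. For each of the 5 receptors all 9 LN libraries lie above all 9 LP libraries, and LN CD11b+ DCs are the lowest LN group.

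Of the ligands, Tnf (ENSMUSG00000024401, chr17:35199381-35202007, minus strand) overlapped between tissues. This cytokine of inflammation was counted at 20.8, 14.9 and 18.3 CPM in lamina propria CD11b+ DCs, at 18.1, 16.8 and 34.7 CPM in CD103+ DCs and at 26.2, 22.6 and 30.1 CPM in Double+ DCs. Lymph node CD11b+ DCs held 75.9, 79.6 and 75.6 CPM, CD103+ DCs 36.6, 36 and 39.5 CPM and Double+ DCs 27.5, 34.5 and 40.7 CPM. Lymph node CD11b+ DCs stood apart and each of the other groups overlapped its neighbour in the order. The log2 rise of 2.10 ± 0.23 in CD11b+ DCs passed the test (edgeR adjusted p = 2.05e-06), whereas the difference was 0.69 ± 0.22 in CD103+ DCs (0.0118) and 0.38 ± 0.22 in Double+ DCs (0.148). Without lamina propria CD103+ replicate 3, the library at 34.7 CPM, the CD103+ difference was 1.08 and passed (edgeR adjusted p = 4.58e-05).

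Tnfsf9 (ENSMUSG00000035678, chr17:57105325-57107757), the ligand of 4-1BB, was the only one of the 10 with a different sign of tissue difference among subsets. The lamina propria held 76.4, 49.6 and 42.4 CPM in CD11b+ DCs, 6.51, 5.70 and 13.1 CPM in CD103+ DCs and 30.8, 28.4 and 20.6 CPM in Double+ DCs. The lymph nodes held 24.1, 27.8 and 47.7 CPM in CD11b+ DCs, 64.6, 71.2 and 76.1 CPM in CD103+ DCs and 42.4, 60.3 and 71.2 CPM in Double+ DCs. Lamina propria CD103+ DCs were below all other groups, and each of the 5 other groups overlapped the next in order. The log2 difference was 3.09 ± 0.34 in CD103+ DCs (edgeR adjusted p = 5.59e-07), 1.12 ± 0.31 in Double+ DCs (0.00521) and -0.76 ± 0.31 in CD11b+ DCs (0.0631). The call in Double+ DCs was lost without lamina propria replicate 2 (1.18, edgeR adjusted p = 0.0136), lamina propria replicate 3 (0.97, 0.0288), lymph node replicate 2 (1.09, 0.0158) or lymph node replicate 3 (0.94, 0.0292). An antisense gene, Gm11110, overlaps exons of Tnfsf9 and was counted at 1.51 to 4.51 CPM, and reads of the 2 cannot be told apart where they overlap.

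Tnfsf4 (ENSMUSG00000026700, chr1:161395409-161418410), the ligand of OX40, was low in the lamina propria. CD11b+ DCs held 0.862, 0.696 and 0.190 CPM there, Double+ DCs 0.186, 0.136 and 0.179 CPM, and CD103+ DCs 1 read in all 3 libraries together. In the lymph nodes it was counted at 11.2, 13.3 and 8.23 CPM in CD11b+ DCs, at 3.36, 3.21 and 3.38 CPM in CD103+ DCs and at 3.95, 3.6 and 4.99 CPM in Double+ DCs. No neighbouring groups overlapped, and lymph node CD11b+ DCs were highest. Lamina propria CD11b+ and Double+ DCs were separated only by 6 against 5 reads (0.190 and 0.186 CPM) and did not pass (edgeR adjusted p = 0.0187). Lymph node Double+ and CD103+ DCs differed by 0.33 ± 0.36 on the log2 scale (edgeR adjusted p = 0.564). The log2 rise was 4.23 ± 0.42 in CD11b+ DCs and 4.61 ± 0.46 in Double+ DCs (edgeR adjusted p 7.85e-07 and 2.17e-07). In CD103+ DCs the test also passed (edgeR adjusted p = 1.32e-08), and the ratio of 234 to 1 counts, scaled to library size, was 329 with an exact 95% interval of 58.5 to 13050, which covers counting error only. Among genes of innate lymphocytes, some of which carry OX40 ligand, Ncr1, Klrb1c, Il22 and Il23r were, like Tnfsf4, highest in lymph node CD11b+ DCs, and Eomes was not. Ncr1 (NKp46) stood at 73.2 to 117.8 CPM in CD11b+, 11 to 18.7 CPM in Double+ and 2.19 to 2.74 CPM in CD103+ DCs of the lymph node, and at no more than 0.503 CPM in the lamina propria. Klrb1c (NK1.1) stood at 39.6 to 78.9, 9.77 to 12.3 and 0.745 to 1.49 CPM in the same 3 groups, and at no more than 0.853 CPM in the lamina propria. Il22 reached 11.1 CPM in lymph node CD11b+ DCs, and Eomes was at 0 in lamina propria CD11b+ and Double+ DCs and highest in lymph node CD103+ DCs, at 4.60 to 9.75 CPM. The part of such cells in the levels of Tnfsf4 and of Tnf, also highest in lymph node CD11b+ DCs, was not tested.

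Cd70 (ENSMUSG00000019489, chr17:57145997-57149777, minus strand), the ligand of CD27, was close to 0 in the lamina propria, where the 9 libraries ran from 0 through a median of 0.0714 to 0.204 CPM. The summed counts there were 5, 5 and 9 reads in CD11b+, CD103+ and Double+ DCs. In the lymph nodes it was counted at 2.41, 2.21 and 1.80 CPM in CD11b+ DCs, at 14.3, 12 and 17.4 CPM in CD103+ DCs and at 5.55, 4.92 and 5.51 CPM in Double+ DCs. CD103+ DCs were highest, Double+ DCs next and CD11b+ DCs lowest, with no overlap. The ratio of scaled counts was 37.3 in CD11b+ DCs (exact 95% interval 15.7 to 116), 288.4 in CD103+ DCs (123.2 to 890.2) and 49.7 in Double+ DCs (25.9 to 109.4), and all 3 passed the test (edgeR adjusted p 5.25e-05, 1.27e-07 and 3.07e-06). The 5 reads of lamina propria CD103+ DCs were all in replicate 3, and without it the fitted log2 rise in CD103+ DCs was 11.69 against 7.96, with no read left in that group.

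Tnfsf13b (ENSMUSG00000031497, chr8:10006467-10039072) encodes BAFF and was the only gene of the 10 that fell. Lamina propria levels were 18.8, 16.7 and 26.3 CPM in CD11b+ DCs, 26.2, 23.7 and 22.5 CPM in CD103+ DCs and 36.7, 36.9 and 37.6 CPM in Double+ DCs. Lymph node levels were 1.43, 1.88 and 0.833 CPM in CD11b+ DCs, 1.87, 3.12 and 3.77 CPM in CD103+ DCs and 2.03, 2.48 and 1.81 CPM in Double+ DCs. Lamina propria Double+ DCs stood above the rest, and neighbouring lymph node groups overlapped. On the log2 scale it fell by 3.89 ± 0.28 in CD11b+ DCs, by 3.05 ± 0.27 in CD103+ DCs and by 4.13 ± 0.28 in Double+ DCs (edgeR adjusted p 2.7e-08, 4.11e-08 and 2.26e-09). Summed macrophage markers were 46.2 to 2292 CPM in the lamina propria and 13.8 to 867.8 CPM in the lymph nodes, and in CD103+ DCs they were 46.2 to 62.8 CPM and 13.8 to 19.5 CPM, with Fcgr1 at 0 in the lymph node. Their part in the fall of Tnfsf13b was not tested.

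**Figure D2:**
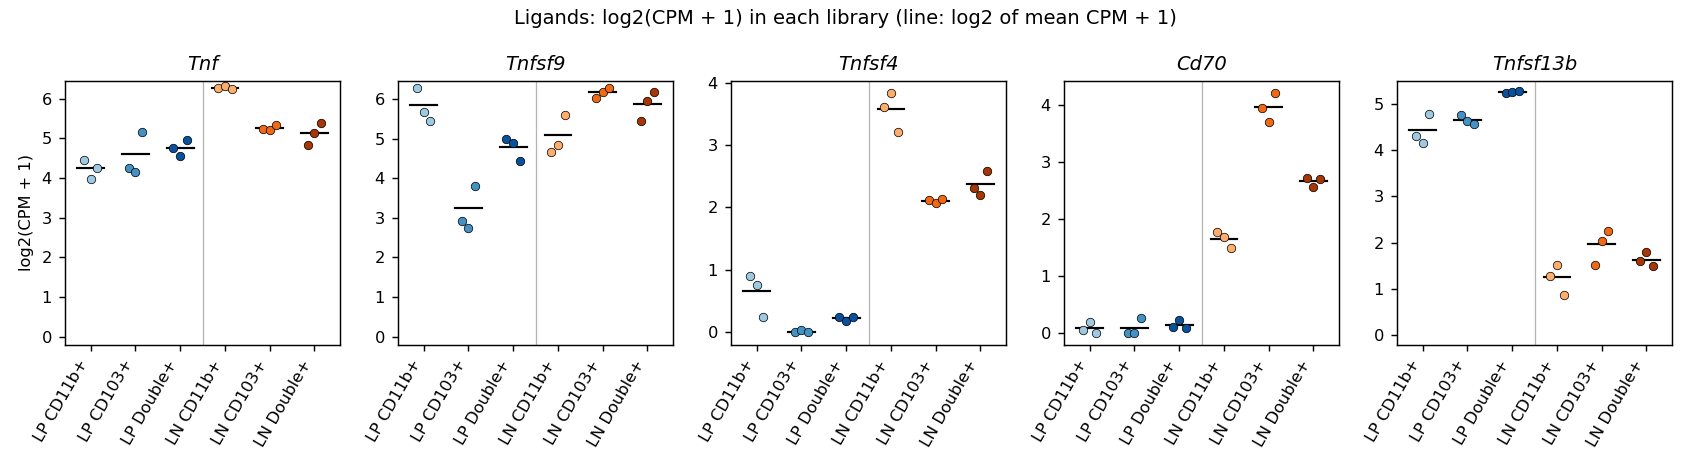
Ligand levels as log2(CPM + 1) in each of the 18 libraries (points), with a line at the log2 of the mean CPM + 1 of 3 libraries. Tnfsf4 and Cd70 are near 0 in every LP library, Tnfsf13b is lower in every LN library, and Tnf and Tnfsf9 overlap between tissues.

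The second question was whether the tissue difference depends on the subset. By the F test over the 3 subsets it differed for 7 of the 10 genes, against 31.5% of all tested genes (adjusted p under 0.01). Cd40, Tnfrsf1b and Fas rose by least in CD11b+ DCs. The difference of log2 rises between CD103+ and CD11b+ DCs was 2.33 ± 0.18 for Cd40, 2.46 ± 0.16 for Tnfrsf1b and 2.18 ± 0.28 for Fas (edgeR adjusted p 2.9e-08, 5.76e-09 and 1.22e-05). Between Double+ and CD11b+ DCs it was 1.45 ± 0.17, 1.51 ± 0.16 and 1.66 ± 0.29 for the same 3 receptors (edgeR adjusted p 1.1e-05, 2.92e-06 and 0.000415). Tnf went the other way, with a rise smaller by 1.40 ± 0.31 in CD103+ and by 1.72 ± 0.31 in Double+ DCs than in CD11b+ DCs (edgeR adjusted p 0.00179 and 0.000518). Tnfsf9 differed by 3.84 ± 0.46 between CD103+ and CD11b+ DCs (edgeR adjusted p = 4.39e-06). In all, 7 genes differed between CD103+ and CD11b+ DCs, 5 between Double+ and CD11b+ DCs and 1, Tnfsf9, between Double+ and CD103+ DCs, where 18.5%, 11.6% and 8.37% of tested genes differed. These comparisons share libraries. Tnfrsf4 lost its call between CD103+ and CD11b+ DCs (1.71) without lamina propria CD11b+ replicate 3 (1.29) or lamina propria CD103+ replicate 2 (1.49). Tnfsf9 lost its call between Double+ and CD11b+ DCs (1.88) without lamina propria CD11b+ replicate 1 (1.59), lamina propria Double+ replicate 3 (1.73) or lymph node CD11b+ replicate 1 (1.66), CD11b+ replicate 2 (1.74) or Double+ replicate 3 (1.69). Its call between Double+ and CD103+ DCs (-1.96) was lost in 7 of 12 such fits, those without lamina propria CD103+ replicate 1 or 2, lamina propria Double+ replicate 1 or 2, lymph node CD103+ replicate 3 or lymph node Double+ replicate 1 or 2, and over the 12 fits it lay between -2.40 and -1.72. In the same pair of subsets Cd40 (-0.88) passed the 2-fold limit without lamina propria CD103+ replicate 3 (-1.0045), and Tnfrsf1b (-0.95) passed it without lamina propria Double+ replicate 1, lymph node CD103+ replicate 3 or lymph node Double+ replicate 3 (the lowest value was -1.01). By total counts the share of called genes with a larger rise in CD103+ than in CD11b+ DCs was 29.2% against 50.2% by TMM, and in Double+ than in CD11b+ DCs 25.3% against 49%.

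Cd70, Tnfsf13b and Tnfrsf9 did not pass the F test (edgeR adjusted p 0.114, 0.0496 and 0.0682). For Cd70, with its few lamina propria reads, the difference between CD103+ and CD11b+ DCs was 2.87 ± 1.29, and without lamina propria CD103+ replicate 3, which held all 5 reads of its group, the F test passed (edgeR adjusted p = 0.00174). The F test calls of Tnfsf4 and Tnfrsf4 (edgeR adjusted p 0.00572 and 0.00757) were the least firm. They were lost in 9 and 14 of the 18 fits that left out a library, where the adjusted p ran from 0.000263 to 0.0239 for Tnfsf4 and from 0.00211 to 0.0772 for Tnfrsf4, the highest values being without lamina propria CD103+ replicate 1 and without lamina propria CD11b+ replicate 3. Tnfsf4 was lost without lamina propria CD11b+ replicate 1 or 2, any lamina propria CD103+ library, or replicate 1 or 3 of lymph node CD11b+ or CD103+ DCs. Tnfrsf4 kept its call without lamina propria CD11b+ replicate 2, CD103+ replicate 1 or Double+ replicate 2 or lymph node CD11b+ replicate 2, and lost it without any other library. With the replicate number as a block the Tnfrsf4 value was 0.0125. With total counts as scaling both were lost, and without the 2 libraries with both Xist and Ddx3y the values were 0.0124 and 0.0183.

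**Figure D3:**
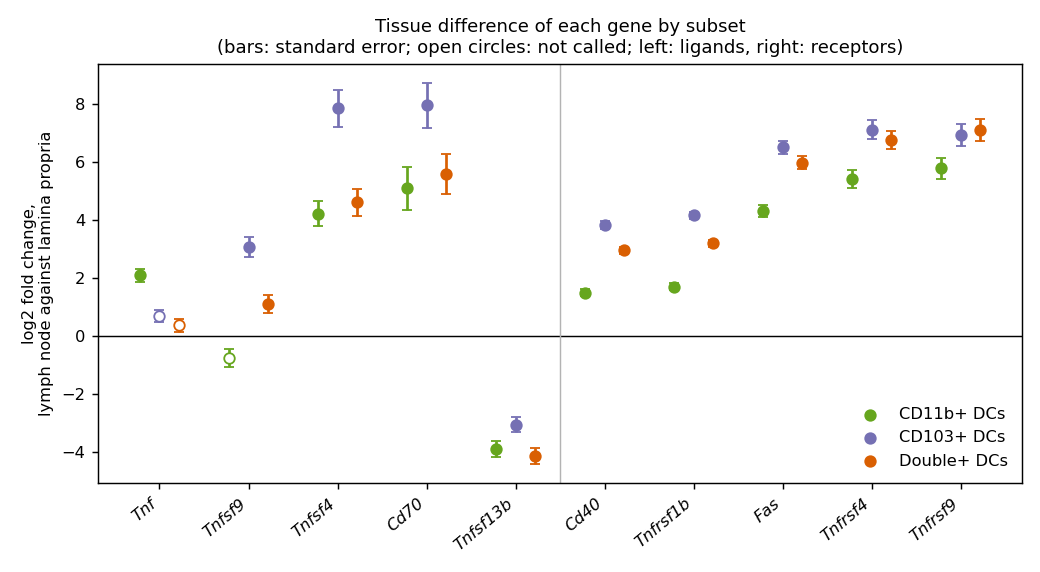
Log2 fold change of lymph node against lamina propria for each gene (ligands left, receptors right) in CD11b+, CD103+ and Double+ DCs, with standard errors. Filled points passed the test and open points did not. Tnfsf13b is the only gene below 0 in all subsets, and CD11b+ DCs have the smallest rise for all 5 receptors.

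Within the lamina propria, CD103+ DCs differed from the other 2 subsets in some of the genes. Between CD103+ and CD11b+ DCs 4 genes changed, where 15.7% of tested genes did. In CD103+ DCs Tnfsf4 fell by 5.35 ± 0.69, Tnfsf9 by 2.75 ± 0.33 and Tnfrsf1b by 1.34 ± 0.11 on the log2 scale, while Tnfrsf4 rose by 1.58 ± 0.32 (edgeR adjusted p 1.01e-05, 5.01e-06, 7.69e-08 and 0.000909). The same 3 genes that fell were higher in Double+ than in CD103+ DCs, by 3.58 ± 0.80 for Tnfsf4, 1.68 ± 0.33 for Tnfsf9 and 1.36 ± 0.11 for Tnfrsf1b (edgeR adjusted p 0.00212, 0.000653 and 7.47e-08; 13.6% of tested genes changed). Both Tnfsf4 values are fitted against 1 read in CD103+ DCs, and without replicate 2, which held it, they were -6.99 against CD11b+ and 5.22 in Double+ DCs. The Tnfsf4 call between Double+ and CD103+ DCs was lost without lamina propria CD103+ replicate 1 (edgeR adjusted p = 0.0108). Between Double+ and CD11b+ DCs none of the 10 passed edgeR's test, where 4.81% of tested genes did, although 7 had an unadjusted p under 0.05 and DESeq2 called 3, namely Tnfsf4, Tnfsf9 and Tnfrsf4. Lamina propria CD11b+ replicate 3 had the highest Tnfrsf9 and the lowest Tnfsf4 of its group, and without it 2 genes passed between Double+ and CD11b+ DCs, Tnfsf4 at -2.20 and Tnfrsf9 at 1.91 (edgeR adjusted p 0.000773 and 0.0034). Tnfrsf9 also passed between CD103+ and CD11b+ DCs without that library (1.93, edgeR adjusted p = 0.000949) or without lamina propria CD103+ replicate 2 (1.51, 0.00469).

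Within the lymph nodes CD11b+ DCs stood apart from the other 2 subsets. Their summed maturation markers, given above, were also the lowest there (4734 to 7519 CPM). Their summed macrophage markers were the highest there, at 493.8 to 867.8 CPM against 13.8 to 19.5 CPM in CD103+ and 119.2 to 141.2 CPM in Double+ DCs. So were their summed B cell markers (122.4 to 172.1 CPM) and plasma cell markers (1507 to 1679 CPM), while summed T cell markers overlapped among the subsets. The part of maturation or of such cells was not tested. All 10 genes changed between CD103+ and CD11b+ DCs, where 25.9% of tested genes did (10.2% higher, 15.6% lower). In CD103+ DCs the 5 receptors were higher, with Tnfrsf4 up by 3.29 ± 0.25 and Fas by 2.80 ± 0.18 on the log2 scale and then Tnfrsf9 by 2.33 ± 0.29, Cd40 by 2.04 ± 0.13 and Tnfrsf1b by 1.12 ± 0.11 (edgeR adjusted p 1.31e-08, 1.5e-09, 3.76e-06, 9.38e-10 and 2.97e-07). Cd70 was higher by 2.77 ± 0.54, Tnfsf9 by 1.09 ± 0.31 and Tnfsf13b by 1.07 ± 0.28, while Tnf was lower by 1.04 and Tnfsf4 by 1.72 (log2 differences -1.04 ± 0.22 and -1.72 ± 0.37). The edgeR adjusted p of these 5 ligands lay between 0.000375 and 0.00703. Several of the smaller differences lost their call when 1 library was left out, by the adjusted p or the 2-fold limit. Tnfsf9 lost its call without CD11b+ replicate 1 (0.86) or 2 (0.94) or CD103+ replicate 1 (1.13), 2 (1.06) or 3 (1.02), with edgeR adjusted p from 0.0142 to 0.048, Tnfsf13b without CD11b+ replicate 1 (1.06) or 3 (0.78) or CD103+ replicate 2 (1.00) or 3 (0.83), with edgeR adjusted p from 0.0141 to 0.0285, and Tnfrsf1b without CD11b+ replicate 1 (0.96, under 2-fold). Scaled to total counts, the median of all tested genes in this pair was -0.56 against -0.13 by TMM, the share of called genes that were higher was 19.5% against 39.6%, and Tnfsf9, Tnfsf13b and Tnfrsf1b, at 0.67, 0.63 and 0.69, no longer passed.

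Between lymph node Double+ and CD11b+ DCs 7 genes changed, where 16.7% of tested genes did (6.92% higher, 9.82% lower). The 5 receptors were again higher, by 1.52 ± 0.11 for Tnfrsf1b up to 2.48 ± 0.29 for Tnfrsf9, and Tnf and Tnfsf4 were lower (-1.17 ± 0.22 and -1.39 ± 0.36, edgeR adjusted p 0.000368 and 0.00517). The Tnfsf4 call was lost without CD11b+ replicate 1 (-1.39) or 2 (-1.24) or Double+ replicate 1 (-1.36), 2 (-1.29) or 3 (-1.55). By total counts the median of all tested genes in this pair was -0.44 against -0.08, and the share of called genes that were higher was 19.3% against 41.3%. Between lymph node Double+ and CD103+ DCs only Fas passed, lower in Double+ DCs (-1.20 ± 0.17, edgeR adjusted p = 6.5e-05), where 6.53% of tested genes changed. Cd40 differed there by -0.29 ± 0.12 and Tnfrsf9 by 0.15 ± 0.28. Tnfrsf4 at -0.85 ± 0.23 and Tnfrsf1b at 0.40 ± 0.11 missed the threshold (edgeR adjusted p 0.0129 and 0.013).

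Ratios within a library do not depend on the scaling between libraries, and were taken per kilobase of exon (GENCODE vM21). TNF has 2 receptors, the death domain receptor TNFR1 (Tnfrsf1a) and TNFR2 (Tnfrsf1b). Tnfrsf1b over Tnfrsf1a was 0.367 to 0.801 in the 9 lamina propria libraries. In the lymph nodes it was 3.91 to 6.33 in CD11b+, 11.5 to 12.5 in CD103+ and 25.7 to 27.8 in Double+ DCs. Tnfrsf1a was thus the more abundant receptor in every lamina propria library and Tnfrsf1b in every lymph node library, and the 3 lymph node subsets did not overlap. Tnfrsf1a itself fell by 1.28 ± 0.08 on the log2 scale in the mean of the 3 tissue differences (edgeR adjusted p = 1.31e-10).

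For 4-1BB and its ligand, Tnfrsf9 over Tnfsf9 was 0.00846 to 0.487 in the lamina propria and 1.03 to 6.99 in the lymph nodes, so that the ligand transcript was the more abundant in every lamina propria library and the receptor transcript in every lymph node library. Tnfrsf4 over Tnfsf4 in the lymph nodes was 6.00 to 13 in CD11b+ DCs, 104 to 164.1 in Double+ DCs and 263.5 to 322.8 in CD103+ DCs. Over the 28 receptors of the superfamily, the sum per kilobase was 168.1 to 380.1 CPM in the lamina propria and 499.8 to 1721 CPM in the lymph nodes. By mean share, Tnfrsf4, Tnfrsf1b, Cd40, Tnfrsf9 and Fas were the 5 most abundant receptors in lymph node CD103+ and Double+ DCs. Tnfrsf4 was at 32.0% of the sum in CD103+ and Tnfrsf1b at 26.6% in Double+ DCs. In lymph node Double+ DCs the share of Fas by library (5.20% to 5.81%) overlapped that of Relt (4.36% to 5.32%). In the lamina propria Tnfrsf1a had the highest mean share in each subset, at 17.4%, 21.4% and 15.9% in CD11b+, CD103+ and Double+ DCs. In lamina propria Double+ DCs its share by library (15.1% to 17.1%) overlapped that of Tnfrsf13b (14.4% to 15.6%).

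**Figure D4:**
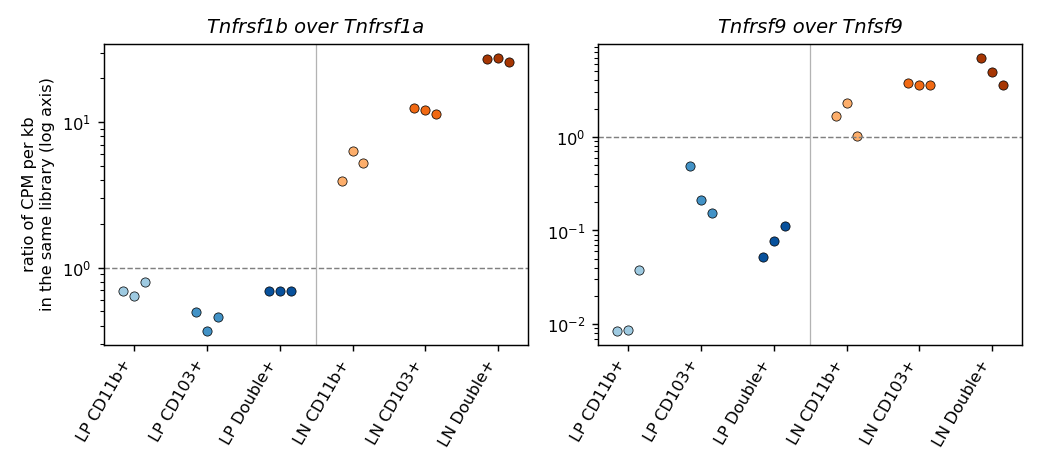
Ratio of 2 transcripts per kilobase of exon in each of the 18 libraries, on a log axis, for Tnfrsf1b over Tnfrsf1a and Tnfrsf9 over Tnfsf9. The dashed line marks a ratio of 1. All LP libraries lie below it and all LN libraries above it in both panels.

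The partners of the 10 genes were measured in the same libraries. Cd40lg, the ligand of CD40, ran from 0.0357 to 0.862 CPM in the lamina propria and from 4.94 to 15.1 CPM in the lymph nodes. Cd27, the receptor of CD70, ran from 0.366 to 1.80 CPM and from 13.4 to 30.7 CPM, and Fasl, the ligand of Fas, from 0.0714 to 0.431 CPM and from 1.14 to 14.8 CPM. These 3 genes are known from T and NK cells, and all rose in each subset, with mean log2 rises of 4.91 ± 0.42, 4.55 ± 0.26 and 4.34 ± 0.39 (edgeR adjusted p 1.85e-08, 9.28e-11 and 2.86e-08). The T cell markers and the innate lymphocyte genes Ncr1 and Klrb1c given above were higher in the same libraries. Fasl, like Ncr1, was highest in lymph node CD11b+ DCs, at 8.63 to 14.8 CPM against at most 4.75 CPM in the other lymph node groups. The part of these cells was not tested. Lta, lymphotoxin alpha, which shares the receptors of TNF, rose by 4.78 ± 0.35 (edgeR adjusted p = 2.1e-09) and was highest in lymph node CD11b+ DCs, like Tnf, at 42.4 to 91.6 CPM. The BAFF receptors differed among themselves. Tnfrsf13c (BAFF-R) fell by 1.93 ± 0.15 and Tnfrsf13b (TACI) by 1.63 ± 0.11, whereas Tnfrsf17 (BCMA) rose by 1.27 ± 0.26 in the mean of the tissue differences (edgeR adjusted p 4.79e-09, 4.4e-10 and 0.000387). Tnfrsf17 passed in Double+ DCs and not in the other 2 subsets. Tnfrsf13b fell in Double+ DCs from 157.5 ± 2.22 CPM (SD, n = 3) to 19.6 ± 2.71 CPM (edgeR adjusted p = 8.22e-10) and by 1.23 ± 0.19 in CD103+ DCs, and it did not pass in CD11b+ DCs (-0.65 ± 0.17). All 3 are receptors of the B lineage, and in the mean of the tissue differences 6 of 7 tested B cell markers rose and 1 fell. Summed B cell markers (8 genes) were 14.8 to 70.5 CPM in the lamina propria and 41.1 to 172.1 CPM in the lymph nodes, with Pax5 at 0 in lamina propria Double+ DCs, and were highest in lymph node CD11b+ DCs. Of 5 plasma cell markers 2 rose and none fell in the mean of the tissue differences, while in CD103+ and in Double+ DCs 2 rose and 1 fell. Summed plasma cell markers were 561 to 2210 CPM in the lamina propria and 352.1 to 1679 CPM in the lymph nodes. Their part in these receptor levels was not tested.

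In the rest of the superfamily, 9 of 12 tested ligands rose and none fell in the mean of the 3 tissue differences, with a median log2 difference of 2.62 against 0.05 over all tested genes. Of 21 tested receptors 9 rose and 4 fell, with a median of 0.99. Over all tested genes 19.7% rose and 13% fell. Among genes with at least 5 CPM in the higher tissue the largest rises were Tnfrsf11b (osteoprotegerin, 5.74 ± 0.32), Tnfsf11 (RANK ligand, 5.26 ± 0.40), Cd40lg and Tnfrsf25 (DR3, 4.86 ± 0.38). The largest falls were Tnfrsf21 (DR6, -2.21 ± 0.10), Tnfrsf13c, Tnfrsf13b and Tnfrsf1a. Tnfsf11 ran from 0 to 1.36 CPM in the lamina propria and from 1.53 to 14.4 CPM in the lymph nodes, and Tnfrsf25 from 0 to 4.52 CPM and from 3.51 to 72.2 CPM. Both were highest in lymph node CD11b+ DCs, as were Ncr1 and Klrb1c, whose part was not tested.

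Of the 21 genes that carry or restrain the signal from these receptors, 10 rose in the mean of the tissue differences and none fell, with a median of 0.70. The largest rises were Traf1, a TRAF that binds TNFR2, CD40 and 4-1BB complexes, at 3.11 ± 0.08, Birc2 (cIAP1) at 3.03 ± 0.10, Cflar (cFLIP), the inhibitor of caspase 8, at 2.58 ± 0.07, and Tank, a TRAF-binding protein, at 2.33 ± 0.05 (edgeR adjusted p 2.94e-15, 7.58e-14, 1.07e-14 and 1.94e-15). Traf1 ran from 102.8 to 196.3 CPM in the lamina propria and from 638 to 1649 CPM in the lymph nodes. Cflar ran from 27.0 to 47.7 CPM and from 103.6 to 322.4 CPM. Neither overlapped between tissues. The tissue difference of 15 of the 21 genes depended on the subset by the F test, against 31.5% of all tested genes. Cflar rose by 1.46 ± 0.12 in CD11b+, 3.40 ± 0.13 in CD103+ and 2.89 ± 0.13 in Double+ DCs. Cd40, Tnfrsf1b, Fas and Tnfrsf4 had the same order of subsets, and Tnfrsf9 did not (5.78, 6.94 and 7.11). None of these 5 receptors passed for a difference of tissue effects between Double+ and CD103+ DCs. The median log2 rise of the maturation markers was 3.20, 5.97 and 4.87 in CD11b+, CD103+ and Double+ DCs. The part of maturation was not tested.

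**Figure D5:**
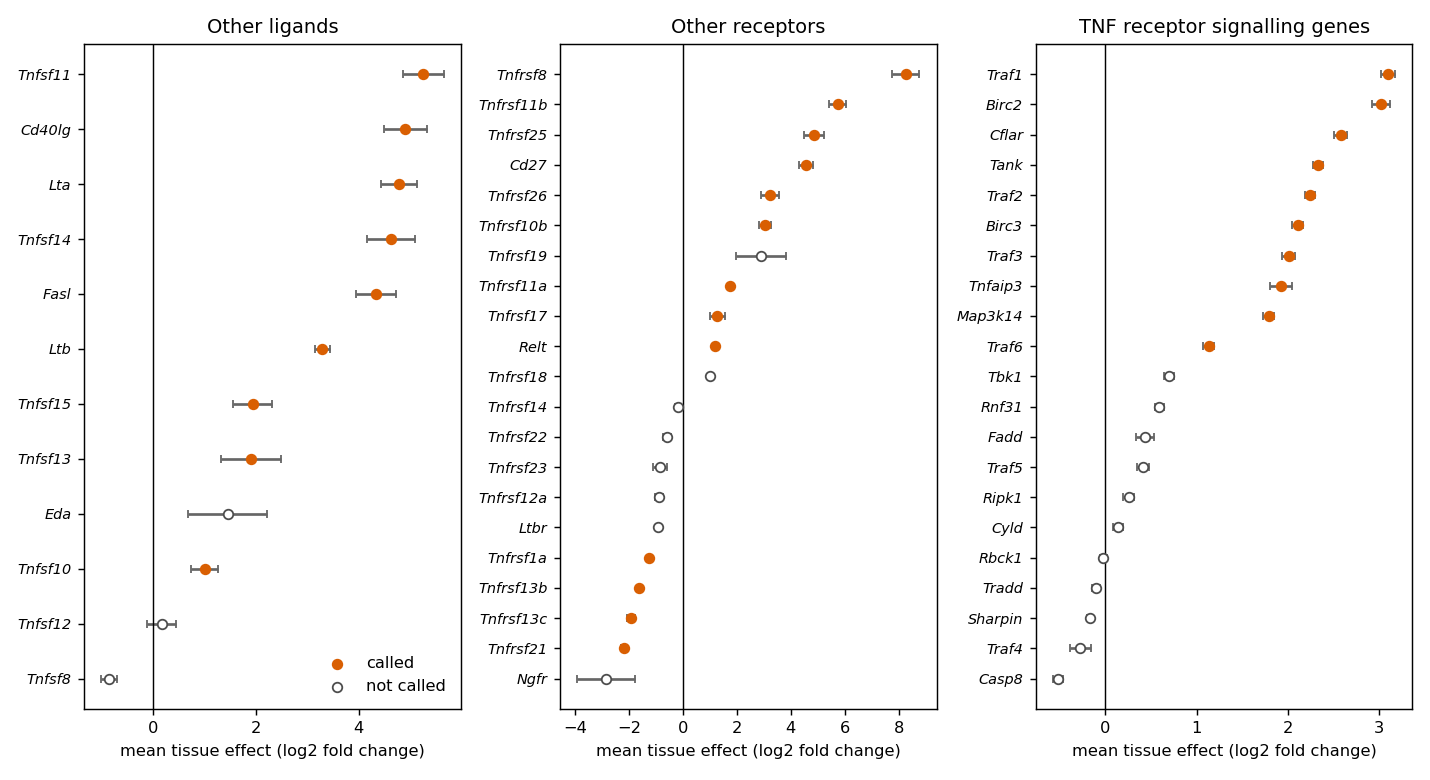
Mean of the 3 tissue differences (log2 fold change, lymph node against lamina propria) with standard errors for the other superfamily ligands (12 tested), the other receptors (21 tested) and TNF receptor signalling genes (21 tested). Filled points passed the test. No other ligand and no signalling gene fell past the threshold, while 4 receptors did.

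For each gene the 2 protein-coding genes with the most similar pattern were found by Pearson correlation of log2(CPM + 1) over the 18 libraries, among 9558 genes with at least 10 CPM in the mean of a group. The libraries share tissue, subset and sex, so that these values describe the pattern and carry no test. Tnfrsf4 was closest to Snn (0.998) and Dscaml1 (0.997), Fas to Tspan3 (0.997) and Synpo2 (0.995), Cd40 to Rnf181 (0.995) and Rab21 (0.994), and Tnfrsf1b to Plxnc1 and Loxl3 (both 0.993). Tnfrsf9 was closest to Cacnb3 (0.994), a gene of the maturation list, and to Tnfrsf4 (0.992). Among the ligands Tnfsf4 was closest to Il23r (0.993) and Txk (0.985), genes known from lymphocytes. Cd70 was closest to Serpinc1 (0.992) and H2-Q4 (0.991), and Tnfsf13b to Rheb (0.977) and Lgals3 (0.971). Tnf and Tnfsf9 had less close neighbours, Lta (0.907) and Phc1 (0.906) for Tnf and Tcp11l1 (0.906) and Nfkbia (0.905) for Tnfsf9. Il23r stood at 17.8 to 27.8 CPM in lymph node CD11b+ DCs, 4.85 to 6.22 CPM in CD103+ DCs and 7.34 to 8.90 CPM in Double+ DCs, and at no more than 1.83 CPM in the lamina propria.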

How the data were processed

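RNA-seq was read from 18 libraries made with the Smart-seq v4 kit and sequenced on a HiSeq4000 at 75 bp. The authors deposited raw read counts for 54232 Ensembl genes, with no normalization. The submitters' processing notes name FastQC 0.11.7, STAR 2.6 and GRCm38. The annotation and the strand setting are not given in the sources used here, and the kit does not mark strand, so overlapping genes on opposite strands are not separated. Symbols matched for 54079 genes, and all 18 columns were mapped by their labels. No library pair within a group differed by as little as sampling noise (chi-square per gene 14.9 to 64.9), so all were kept.

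Counts were filtered by filterByExpr and scaled by TMM, and 1 quasi-likelihood model with a mean per group was fitted in edgeR 4.0.16 (R 4.3.3). Standard errors were derived from the F statistic. The steps were tested on simulated data. CPM used TMM-scaled library sizes. Named beyond the 10 genes were their partners, the 4 largest called rises and falls in each further list among genes with 5 CPM or more in the higher tissue, and the 2 closest genes by correlation. Members and lists were chosen with earlier results of these data known, so list counts are descriptions. The sum of the innate lymphocyte marker list is not reported here, and 5 of its genes are given singly. Library totals were 23574292 to 46901985 counts, and intervals cover counting error only.

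Same-numbered libraries deviated together in lamina propria CD11b+ with CD103+ (correlations 0.152 to 0.208) and CD103+ with Double+ (0.125 to 0.189), and in no other pair of groups were all 3 above 0.1. In lamina propria CD11b+ with Double+ the correlations were 0.212, 0.075 and 0.25. Alternatives were other scalings (DESeq2 size factors, total counts) and filters, other thresholds, DESeq2 1.42.0, the replicate block, only the libraries compared, and leaving out libraries.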

Additional observations from a re-analysis of the deposited data

Results flagged for a closer look

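The tissue difference depended on the subset for 7 of the 10 genes, by an F test of the difference itself (edgeR, adjusted over 17074 genes, of which 31.5% passed). The adjusted p was 9.37e-08 for Cd40, 1.76e-08 for Tnfrsf1b and 2.91e-05 for Fas, whose rise in the lymph node was smallest in CD11b+ DCs in each case. It was 1.44e-05 for Tnfsf9, which was higher in the lymph node in CD103+ and Double+ DCs and had a log2 difference of -0.76 ± 0.31 in CD11b+ DCs, not past the threshold. It was 0.000565 for Tnf, whose rise passed in CD11b+ DCs. It was 0.00572 for Tnfsf4 and 0.00757 for Tnfrsf4, both of which were lost in many of the fits that left out a library.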

How the results depend on the processing

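No difference that passed its test changed direction under any alternative. With DESeq2 size factors, or with at least 100 counts in at least 3 libraries, every count of changed genes among the 10 stayed within 1.5 times its value. With the replicate number as a block the count was 9 in each tissue comparison and 10 in lymph node CD103+ against CD11b+ DCs, and the block changed no call of a single gene other than the F test of Tnfrsf4 (adjusted p = 0.0125). In lamina propria CD103+ against CD11b+ DCs 4 genes changed, and 2 with only the libraries compared. In lamina propria Double+ against CD11b+ DCs the count was 0, and 1 without a filter, 3 at an adjusted p under 0.05, 3 by DESeq2 and 0 to 2 with a library left out. In lymph node Double+ against CD103+ DCs it was 1, and 2 at an adjusted p under 0.05, 2 by DESeq2 and 2 with only the libraries compared. For the difference of tissue effects between Double+ and CD103+ DCs it was 1, and 3 at an adjusted p under 0.05, 3 when fold change was not limited, 2 by DESeq2, 2 without the libraries holding both Xist and Ddx3y and 0 to 3 with a library left out. In the mean of the tissue differences Tnf (1.06) fell under 2-fold by total counts (0.97) and without lamina propria CD103+ replicate 2 (0.98) or lymph node Double+ replicate 3 (1.00), and Tnfsf9 (1.15) without lymph node CD11b+ replicate 3 (1.00). The causes were not tested. Depth limits Tnfsf4 and Cd70 in the lamina propria, where groups held 1 to 49 reads.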

Other observations

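Ltb, which encodes lymphotoxin beta and was picked out here after its values were seen, had the highest mean per kilobase of the 18 superfamily ligands in each lymph node subset. It made up 70.4% of their sum in CD11b+, 35.6% in CD103+ and 51.3% in Double+ DCs. In CD103+ DCs its share by library (30.2% to 40.6%) overlapped that of Tnfsf9 (26.3% to 32.9%). In the lamina propria the highest mean share was that of Ltb in CD11b+ DCs (48.9%) and of Tnf in CD103+ DCs (46.9%). No ligand led in Double+ DCs, where the shares of Tnfsf9 (23.9% to 29.5%), Ltb (16.1% to 32.1%) and Tnf (16.8% to 27.6%) overlapped. Ltb rose in the lymph node by 2.55 ± 0.25 in CD11b+, 4.85 ± 0.29 in CD103+ and 2.49 ± 0.25 in Double+ DCs on the log2 scale (edgeR adjusted p 6.26e-07, 3.27e-10 and 2.3e-07). Ltb is also known from lymphocytes, and T cell markers and the innate lymphocyte genes Ncr1 and Klrb1c were higher in the same libraries, whose part was not tested.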
